A study of Mus musculus with 14 samples.

Results

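Post-implantation epiblast stem cells (EpiSCs) were compared with mouse embryonic stem cells (ESCs) held in 2i medium, which together make up 4 of the 14 Illumina mouse beadchip arrays of the series, 2 arrays a side. The arrays were chosen by sample title. The EpiSC arrays carry the strain label C57/B6 and come from epiblasts of embryonic day 6.5 on array 1, while the label of array 2 reads 6.6; their labels name no reporter, culture medium or sorting gate of their own. The 2i ESCs are also C57/B6. They are blastocyst-derived and carry O4-DE-GFP, a green reporter for the distal enhancer of the Oct4 gene (Pou5f1), and O4-PE-RFP, a tdTomato reporter from an Oct4 fragment that lacks the distal enhancer and keeps the proximal enhancer and promoter. They grew in serum-free N2B27 medium with LIF, 3 µM CHIR99021 (a GSK3 inhibitor) and 1 µM PD0325901 (a MEK inhibitor), and the GFP+RFP- cells were taken; the series design states that RNA came from sorted cells. Cell line, embryonic stage of origin and the labelled reporters differ between the 2 sides, and the EpiSC medium and gate are not given in the labels, so that the effects of these cannot be told apart. No label says that the arrays of a side came from separate cultures, so p-values measure the spread between arrays, which may be technical.

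Mouse pluripotent cells exist in a naive state, close to the inner cell mass of the blastocyst, and a primed state, close to the epiblast after implantation. Naive ESCs are kept by LIF signalling through STAT3 and by a network of transcription factors that includes Esrrb, the Klf factors and Tbx3. EpiSCs are the standard culture form of the primed state; they depend on FGF and activin signalling, grow as a flat epithelium and express genes of the postimplantation epiblast. In the naive state Oct4 is driven mainly from its distal enhancer, and in the primed state mainly from its proximal enhancer.

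The EpiSC arrays differed more from each other than did the arrays of any other group. Their values correlated at r = 0.976 across the 10481 genes tested, against 0.997 between the 2i arrays and 0.997 to 0.998 in the other groups. Between them 590 genes lay over 2-fold apart (5.63%), 188 higher on array 1 (1.79%) and 402 higher on array 2 (3.84%), against 13 genes between the 2i arrays and 1 to 20 in the groups other than EpiSC. The EpiSC scanner medians were 313.5 and 316.8 intensity units, against 150.5 and 144.9 in 2i, and 52.3% and 51.7% of probes were detected in EpiSCs, against 49.9% and 50.3% in 2i. Values below are normalized log2 signals, given as array 1 and then array 2 of each group. Since the difference of 1 EpiSC array from the 2i mean is also the estimate that remains when the other is left out, the 2 EpiSC values show how far any result rests on 1 array.

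The promoters of 4 genes on which the comparison turns are shown here, as the 250 bases before the transcription start in RefSeq, build GRCm38.p6. Promoters of 6 of the largest rises and falls (Chst1, Car4, Krt18, Krt42, Tcl1 and Ctsc) were looked at before them and held none of the first 6 motifs named below. The 4 shown, and the CArG box, were then chosen with values and matches in view: Pou5f1 and Nanog, which did not pass the test, Zfp42, a naive gene that fell, and Acta1, which separated the EpiSC arrays. Capitals mark matches, on either strand, to an ESRRB site (AAGGTCA), an octamer (ATTTGCAT), an OTX2 site (GGATTA), a KLF site (CCACACCC), a STAT site (TTCCNGGAA), a GRHL site (AACCNGTT) or a CArG box, the serum response factor site. In these 4 promoters no match overlapped another.
Pou5f1 (chr17:35505782-35506031, plus strand): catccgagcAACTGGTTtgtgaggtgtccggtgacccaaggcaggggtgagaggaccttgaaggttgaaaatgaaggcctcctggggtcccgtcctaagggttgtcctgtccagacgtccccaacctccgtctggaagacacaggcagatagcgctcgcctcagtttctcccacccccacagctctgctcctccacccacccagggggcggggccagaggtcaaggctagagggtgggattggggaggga
Nanog (chr6:122707239-122707488, plus strand): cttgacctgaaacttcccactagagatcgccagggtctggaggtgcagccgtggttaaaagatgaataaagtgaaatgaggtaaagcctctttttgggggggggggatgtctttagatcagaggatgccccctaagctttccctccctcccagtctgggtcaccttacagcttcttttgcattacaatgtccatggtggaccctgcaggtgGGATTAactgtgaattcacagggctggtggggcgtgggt
Zfp42 (chr8:43307010-43307259, minus strand): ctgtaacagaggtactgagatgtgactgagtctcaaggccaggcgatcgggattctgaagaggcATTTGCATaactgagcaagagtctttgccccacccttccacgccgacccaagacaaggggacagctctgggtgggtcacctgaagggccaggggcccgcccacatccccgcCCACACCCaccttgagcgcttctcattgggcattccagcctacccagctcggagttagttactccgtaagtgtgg
Acta1 (chr8:123894776-123895025, minus strand): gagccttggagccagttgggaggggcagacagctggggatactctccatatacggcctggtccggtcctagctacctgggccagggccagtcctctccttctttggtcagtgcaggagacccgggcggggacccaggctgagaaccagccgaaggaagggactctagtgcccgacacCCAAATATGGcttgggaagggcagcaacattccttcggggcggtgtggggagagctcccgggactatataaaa

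Over the same window in all 27025 promoters listed, the ESRRB site was found in 4.05%, the octamer in 1.61%, the OTX2 site in 6.38%, the KLF site in 3.19%, the STAT site in 0.914%, the GRHL site in 1.71% and the CArG box in 1.4%. Among the 20 genes that fell most in EpiSCs, 13 had a promoter listed and 0 of them held any of the 7 motifs. Among the 20 that rose most, 15 had one, of which 3 held the OTX2 site. The KLF site, the GRHL site and the CArG box were each found in 1 of these 15. Over the 8477 promoters of genes tested, the OTX2 site was found in 5.27%. Among the 20 largest gaps between the EpiSC arrays, 14 had a promoter listed. The ESRRB site, the octamer and the CArG box were each found in 1 of these 14. These matches describe the letters of the window and are not evidence of binding.

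In EpiSCs against 2i ESCs, 6946 of the 10481 genes tested differed at an adjusted p under 0.05 (66.3%; limma with Benjamini-Hochberg adjustment), 3397 higher (32.4%) and 3549 lower (33.9%). Called and at least 2-fold were 2898 genes (27.7%), 1595 higher (15.2%) and 1303 lower (12.4%); with the authors' processed values, which carry no background correction, these were 1677. On both EpiSC arrays beyond both 2i arrays on 1 side were 8223 genes (78.5%). The naive transcription factors fell, Krt8, Krt18, Cldn6 and other epithelial genes rose, and the FGF ligands of the epiblast Fgf5 and Fgf8 were detected on both EpiSC arrays and on neither 2i array. Pou5f1 and Nanog did not pass the test. On both EpiSC arrays at least 2-fold above the 2i mean were 1289 genes (12.3%), and at least 2-fold below it 1015 (9.68%). The median change over all genes tested was -0.01, and the median 95% confidence margin of a difference was 0.289 on the log2 scale.

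**Figure D1:**
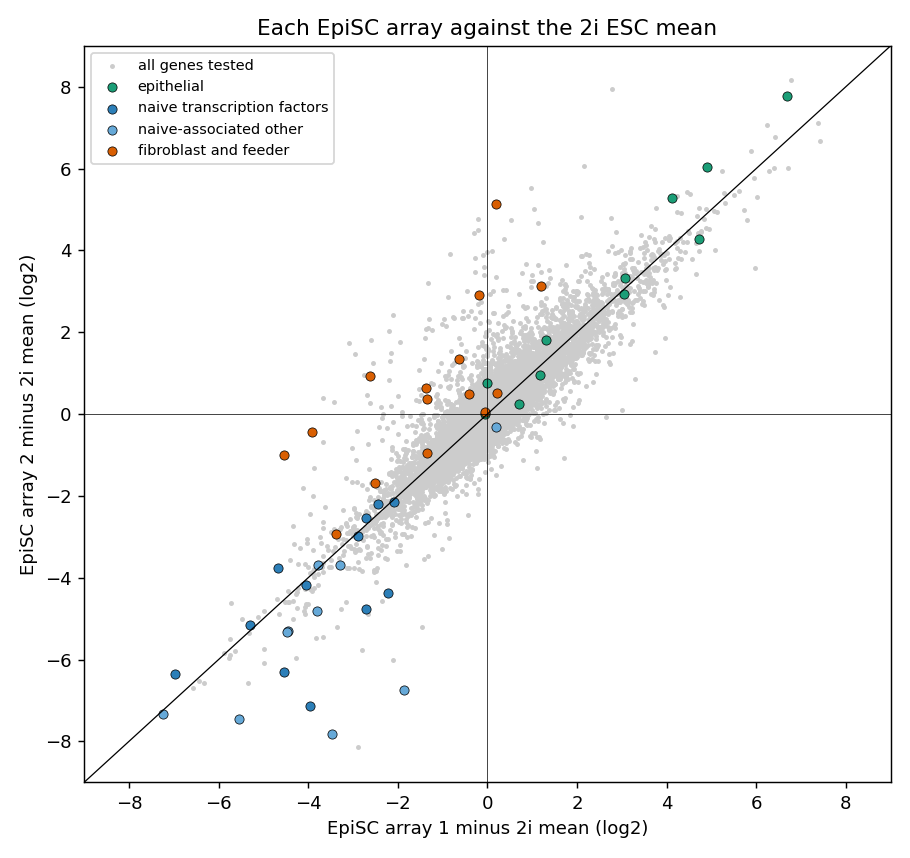
Each of the 10481 genes tested, plotted by its log2 difference from the 2i mean on EpiSC array 1 (x axis) and EpiSC array 2 (y axis); the diagonal marks equal differences, and 4 gene lists are coloured. All 12 naive transcription factors lie below 0 on both axes. Over 2-fold higher on array 2 than on array 1 are 9 of 15 fibroblast genes, against 3.84% of all genes.

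Among the shared factors of pluripotency, Pou5f1, Nanog, Sall4 and Utf1 were not called, and Sox2 fell. Pou5f1, the factor Oct4, read 13.75 and 13.61 in EpiSCs, against 13.53 and 13.56 in 2i ESCs. The difference was 0.13 ± 0.12 (SE, n = 2 arrays a side, limma adjusted p = 0.37). In the reported fit each SE and p-value rests on 1 spread per gene, shared by all 14 arrays. The EpiSC pair varied more than the other pairs, with 590 genes over 2-fold apart, so the shared spread can understate its own. Nanog read 14.09 and 14.05 in EpiSCs, against 14.01 and 14.05 in 2i ESCs, with a difference of 0.04 ± 0.09 (adjusted p = 0.75). For Nanog the EpiSC and 2i arrays overlapped, and for Pou5f1 both EpiSC arrays lay slightly above both 2i arrays on this probe, while its other probe was not called. With median scaling of the arrays in place of quantile normalization, Nanog turned to -0.37 and was called lower (adjusted p = 0.00679). Sall4, a zinc finger partner of Oct4, gave -0.07 ± 0.11, although both of its other probes were called lower. Utf1 gave 0.01 ± 0.19, with its EpiSC arrays on either side of 2i.

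Of 12 core pluripotency genes 9 were tested, and 1 was called higher and 4 lower, against 32.4% and 33.9% of all genes. Sox2, the partner of Oct4 in binding DNA, read 5.93 and 6.32 in EpiSCs, against 10.10 and 9.89 in 2i ESCs, and fell by 3.87 ± 0.15 (adjusted p = 2.2e-08). Both EpiSC arrays lay far below both 2i arrays, and its second probe was called the same way. L1td1, an RNA-binding protein of pluripotent cells, read 10.60 and 9.68 in EpiSCs, against 13.42 and 13.51 in 2i ESCs. Fgf4, the autocrine FGF ligand of ESCs, was undetected in EpiSCs and at least 2.79-fold lower there. Lin28a, which blocks maturation of let-7 microRNAs, was higher by 0.71 ± 0.13, though its other probe was not called. Dppa4, a chromatin-associated pluripotency gene, read 11.07 and 5.81 in EpiSCs, against a mean of 13.96 in 2i ESCs, so that both EpiSC arrays were lower but by very different amounts. Its adjusted p was 0.0026, and 0.0703 when only the 4 arrays compared were fitted.

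All 12 naive transcription factors tested of 14 listed were lower in EpiSCs, each by at least 2-fold on both EpiSC arrays, against the 33.9% of all genes called lower. Their median difference was -3.93 (-3.43 on array 1 and -4.29 on array 2), beside -0.01 over all genes tested. Dppa3 (Stella), a maternal factor that guards imprints, is described with them although it was listed with the other naive genes.
Tbx3, a T-box factor of the naive network, read 4.85 and 5.47 in EpiSCs, against 11.81 and 11.84 in 2i ESCs. It was undetected on both EpiSC arrays and at least 69.1-fold lower (limma adjusted p = 1.87e-09). Dppa3 read 5.10 and 5.01 in EpiSCs, against 12.34 and 12.36 in 2i ESCs, at least 99.5-fold lower. Klf2 read 9.75 and 9.60 in EpiSCs, against 13.79 and 13.79 in 2i ESCs, a fall of 4.11 ± 0.09 with both arrays alike. Klf4, a target of LIF and STAT3, fell by 4.22 ± 0.22 and Klf5 by 2.94 ± 0.07.

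Esrrb, an orphan nuclear receptor at the centre of the naive network, fell on both EpiSC arrays by different amounts. It read 11.32 and 8.16 in EpiSCs, against 15.32 and 15.25 in 2i ESCs (-5.54 ± 0.73, adjusted p = 9.18e-05). Both EpiSC arrays were below both 2i arrays, but array 1 kept a signal 3.17 log2 units above array 2. Zfp42 (Rex1), the standard naive reporter gene, whose promoter above holds an octamer and a KLF match, read 8.99 and 6.83 in EpiSCs, against 11.20 and 11.22 in 2i ESCs. Nr5a2 read 6.71 and 4.93 in EpiSCs, against 11.30 and 11.18 in 2i ESCs, and was detected on EpiSC array 1 only; 1 of its 2 other probes was called the same way. Tfap2c fell by 2.32 ± 0.09 and still read 11.70 and 11.95 in EpiSCs, against 14.12 and 14.17 in 2i ESCs. Spic, a factor induced by 2i, was undetected in EpiSCs and at least 20.3-fold lower.

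Among 10 other naive genes tested of 13, 9 were lower and 0 higher, against 33.9% and 32.4% of all genes. Their median was -4.59 (-3.79 on array 1, -5.32 on array 2). Only Mkrn1, a ubiquitin ligase, was not called. Tcl1, a cofactor of AKT, read 6.71 and 4.81 in EpiSCs, against 12.25 and 12.27 in 2i ESCs. Ooep, a gene of the oocyte and early embryo, read 10.22 and 5.87 in EpiSCs, against 13.65 and 13.74 in 2i ESCs. Dppa5a, an RNA-binding protein, read 14.19 and 9.30 in EpiSCs, against 16.06 and 16.04 in 2i ESCs, and its adjusted p of 0.007 became 0.105 with only the 4 arrays fitted. For Tcl1, Ooep and Dppa5a array 1 lay nearer to 2i than array 2. Of the 22 naive genes in the 2 lists, 7 lay over 2-fold apart between the EpiSC arrays, against 5.63% of all genes. Each of the 7 was higher on array 1, against 1.79% of all genes.

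**Figure D2:**
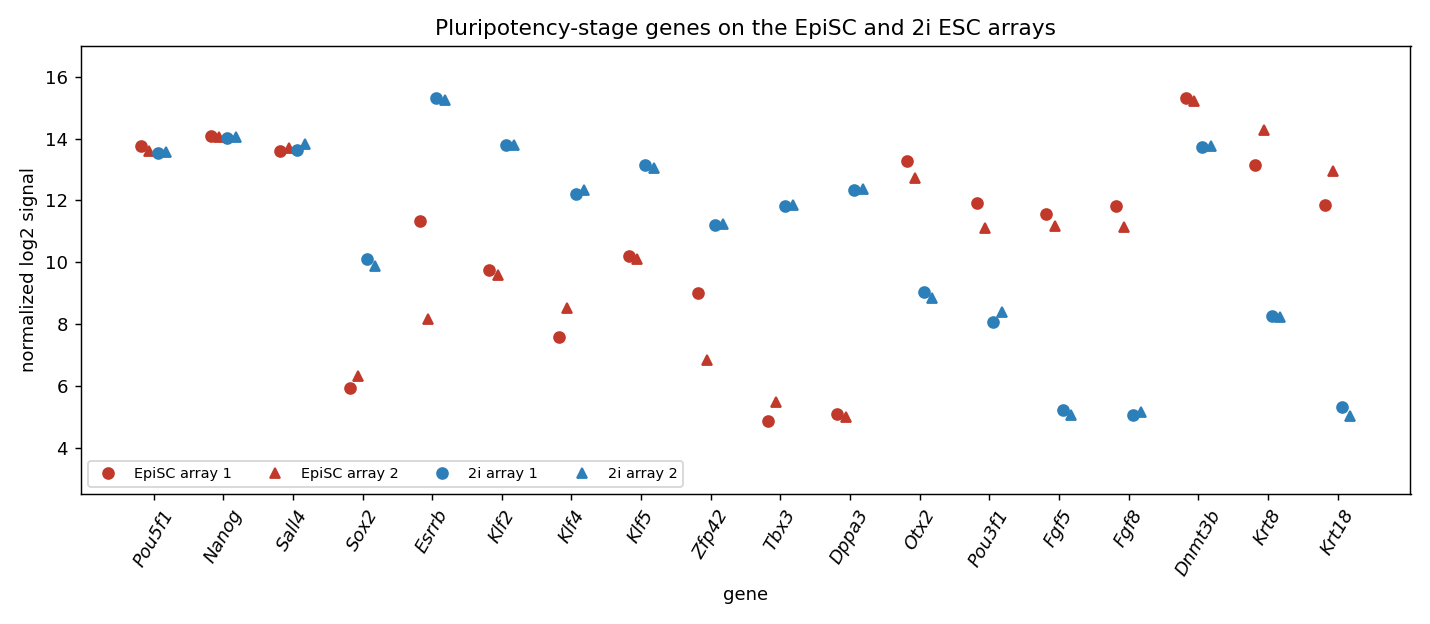
Normalized log2 signal of genes of the naive and primed states on EpiSC arrays 1 and 2 (red circle and triangle) and 2i ESC arrays 1 and 2 (blue circle and triangle). Pou5f1 and Nanog are alike on all 4 arrays, Tbx3 and Dppa3 are near 5 in EpiSCs and near 12 in 2i ESCs, and Fgf5 and Fgf8 show the opposite layout.

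Transcription factors of the postimplantation epiblast were divided. Of 10 tested, 4 were higher and 2 lower, against 32.4% and 33.9% of all genes. Otx2, which directs the exit from the naive state, read 13.27 and 12.74 in EpiSCs, against 9.04 and 8.85 in 2i ESCs (4.06 ± 0.15, adjusted p = 1.5e-08). Pou3f1 (Oct6) read 11.90 and 11.12 in EpiSCs, against 8.06 and 8.38 in 2i ESCs. Zic2 and Sall2 also rose, by 1.18 ± 0.22 and 2.62 ± 0.13. Hesx1 and Pou6f1 were undetected in EpiSCs and lower, while Lef1 at 0.04 ± 0.20 and Meis1 at -0.04 ± 0.42 were not called, Meis1 with its EpiSC arrays on either side of 2i.

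Ligands and surface proteins of the epiblast were mostly higher in EpiSCs. Of 12 tested, 8 were higher and 1 lower, against 32.4% and 33.9% of all genes. Fgf5, the classic marker of the primed epiblast, read 11.55 and 11.16 in EpiSCs, against 5.23 and 5.06 in 2i ESCs, at least 45.3-fold higher. Fgf8, a gastrulation-stage ligand, read 11.83 and 11.14 in EpiSCs, against 5.07 and 5.17 in 2i ESCs, at least 49.5-fold higher. Both were undetected on both 2i arrays and both reached near 11 to 12 in EpiSCs. Car4, a membrane carbonic anhydrase, read 12.22 and 11.95 in EpiSCs, against 4.86 and 4.81 in 2i ESCs, at least 75.1-fold higher. Fgf15, Wnt8a and Wnt3 were at least 17.8-fold, 14.6-fold and 2.99-fold higher. Nodal itself was not called at 0.19 ± 0.26. It read 9.16 and 8.05 in EpiSCs, against 8.42 and 8.40 in 2i ESCs, with the EpiSC arrays on either side of 2i.

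Chst1, a keratan sulfate sulfotransferase, was among the 20 largest rises and was undetected on both 2i arrays. It read 11.88 and 13.27 in EpiSCs, against 4.97 and 5.21 in 2i ESCs, at least 105.5-fold higher. Car14 and the iron exporter Slc40a1 rose by 6.65 ± 0.22 and 5.86 ± 0.09, and Slc40a1 read 12.46 and 12.26 in EpiSCs, against 6.42 and 6.58 in 2i ESCs. Adssl1, an enzyme of purine synthesis, rose by 6.12 ± 0.13, with its 2 other probes called the same way. At the other end of the scale, Notum, a secreted inhibitor of Wnt ligands and a target of Wnt signalling, read 4.92 and 4.83 in EpiSCs, against 11.41 and 11.28 in 2i ESCs, at least 49.7-fold lower. Msc and Krt42 were at least 56.6-fold and 65.3-fold lower.

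Epithelial genes were mostly higher in EpiSCs. Of 11 tested, 9 were higher and 0 lower, against 32.4% of all genes called higher, and the median was 3.00 (3.06 on array 1 and 2.93 on array 2). Krt8 read 13.15 and 14.28 in EpiSCs, against 8.27 and 8.22 in 2i ESCs, and its partner Krt18 read 11.85 and 12.94 in EpiSCs, against 5.31 and 5.03 in 2i ESCs, at least 93.2-fold higher. Krt8 and Krt18 pair to form the simple-epithelium filament, and both were higher on array 2 than on array 1 by a little over 1 log2 unit. Grhl2, a regulator of epithelial genes, was at least 17.8-fold higher, and the splicing factor Esrp1 rose by 3.20 ± 0.13. Cldn6, a tight junction protein, rose by 3.00 ± 0.10. Cdh1 (E-cadherin) was not called (-0.03 ± 0.14), at 12.25 and 12.29 in EpiSCs, against 12.20 and 12.39 in 2i ESCs.
Mesenchymal regulators were spread. Of 8 tested, 2 were higher and 2 lower, no more than the shares of 32.4% and 33.9% over all genes. The higher genes Twist1 and Zeb2 lost their calls with only the 4 arrays fitted (limma adjusted p = 0.154 and 0.175). Zeb1, which was lower, lost its call there too (adjusted p = 0.19). Over 2-fold higher on EpiSC array 2 than on array 1 were 6 of the 8, against 3.84% of all genes. Vim, the mesenchymal filament protein, read 9.30 and 11.19 in EpiSCs, against 11.58 and 11.50 in 2i ESCs, and its call (adjusted p = 0.026) was lost with only the 4 arrays fitted (adjusted p = 0.18) and without 2i array 1 (0.0912) or 2i array 2 (0.0735).

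Some genes of the germ layers rose, mostly to low levels. Of 12 primitive streak genes tested, 6 were higher and 3 lower, against 32.4% and 33.9% of all genes. Gsc, an organizer gene, read 9.56 and 8.54 in EpiSCs, against 7.60 and 7.72 in 2i ESCs. Foxa2 and Lhx1 were undetected in 2i ESCs and at least 2.64-fold and 3.07-fold higher, with Foxa2 reading 7.99 and 6.53 in EpiSCs. Lhx1 was detected on no array outside EpiSCs and passed the detection filter only through EpiSCs. Sp5, a target of Wnt signalling, fell by 2.40 ± 0.29. Of 11 endoderm genes, 4 were higher, namely Dab2 (4.13 ± 0.20), Gata6, Sox17 and Ttr, and 3 lower, Lama1, Apoe and Hhex. Sox17 and Ttr passed the detection filter only through EpiSCs. The call of Hhex was lost without EpiSC array 2 (adjusted p = 0.272) and without either 2i array (0.126 and 0.0866). Gata6 read 7.96 and 7.51 in EpiSCs, against 5.01 and 4.88 in 2i ESCs.

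The marker check gave the following levels. All 6 primed markers tested were detected on both EpiSC arrays, with a mean level of 10.68 and 10.13, against 6.83 and 6.94 in 2i ESCs, where 4 of the 6 were detected. Naive markers averaged 7.70 and 6.89 in EpiSCs, with 6 and 4 of 8 detected, against 12.80 on both 2i arrays, with 8 of 8. All 6 pluripotency markers were detected on the 4 arrays. Of 8 extraembryonic endoderm markers listed, 6 were tested, since Gata4 and Afp were not detected on both arrays of any group. All 6 were detected on each EpiSC array, at a mean of 8.11 and 7.51. In 2i ESCs 3 were detected, and Ttr, Sox17 and Gata6 were not. Ttr and Sox17 were detected on no array outside EpiSCs. They passed the detection filter only through EpiSCs, so their detection there was fixed by the filter. Fibroblast markers averaged 6.31 and 7.62 in EpiSCs, with 3 and 4 of 7 detected, against 8.31 and 8.39 in 2i ESCs, with 6 of 7. Their summed level was 44.2 and 53.4 in EpiSCs, 58.1 and 58.7 in 2i ESCs, and 83.8 and 84.9 in mouse embryonic fibroblasts (MEFs), while Col1a2, Col3a1 and Postn were undetected on both EpiSC arrays. The part of other cell types in the differences was not tested.

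**Figure D3:**
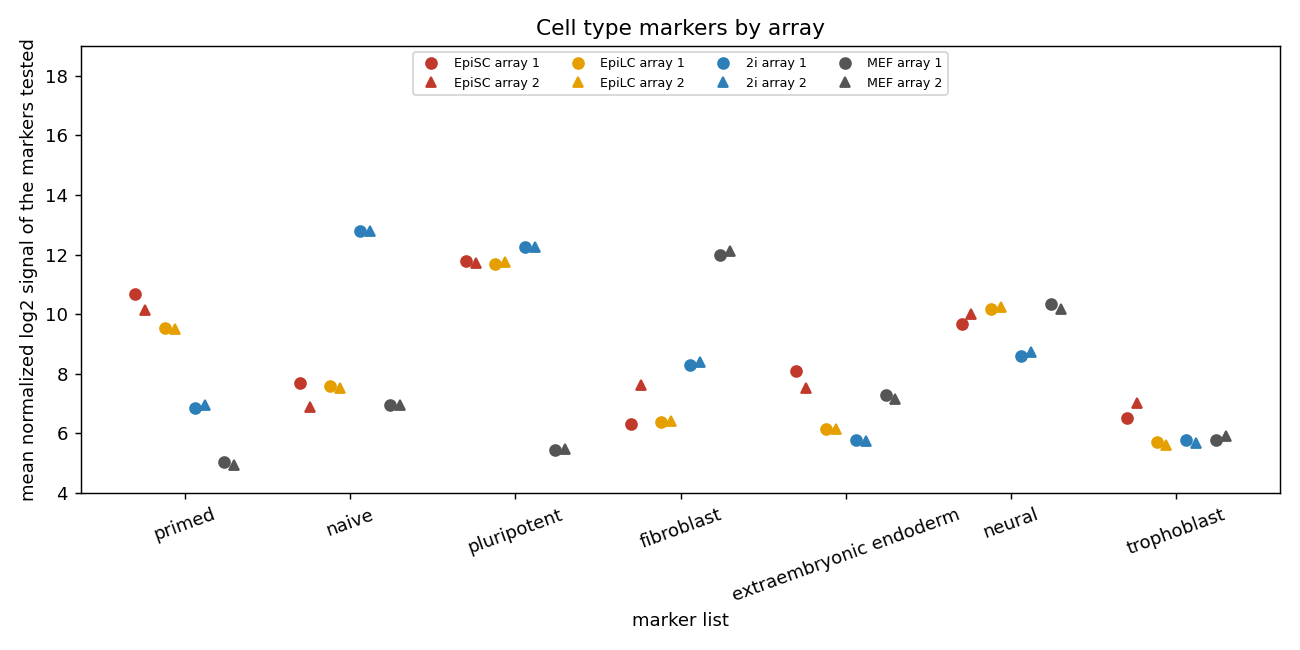
Mean normalized log2 signal of the markers of 7 cell types on each array (circle, array 1; triangle, array 2) of EpiSCs, epiblast-like cells (EpiLCs), 2i ESCs and MEFs. Primed markers are highest in EpiSCs and naive markers highest in 2i ESCs, and the fibroblast markers separate the EpiSC arrays.

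Several feedback genes of ERK signalling rose, and several targets and receptors of LIF signalling fell. Of 14 FGF and ERK pathway genes tested, 8 were higher and 2 lower, against 32.4% and 33.9% of all genes, with a median of 0.91. Dusp6, a phosphatase that feeds back on ERK, read 14.40 and 13.73 in EpiSCs, against 11.69 and 11.67 in 2i ESCs, a rise of 2.38 ± 0.17 with both other probes called the same way. Dusp4 and Spred1, further feedback genes, rose by 2.19 ± 0.09 and 1.66 ± 0.07, with 1 of the 2 other probes of Dusp4 called the same way. Etv5, an ERK target, fell by 1.51 ± 0.11. PD0325901, the MEK inhibitor, was in the 2i medium, and whether it was in the EpiSC medium the labels do not say.

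Of 11 LIF pathway genes tested, 6 were lower and 2 higher, against 33.9% and 32.4% of all genes. Socs3, a STAT3 target that damps LIF signalling, read 10.18 and 10.22 in EpiSCs, against 12.87 and 12.71 in 2i ESCs (-2.59 ± 0.09). Bcl3 fell by 2.91 ± 0.15, and the receptor chains Lifr and Il6st by 1.99 ± 0.21 and 1.83 ± 0.13. Stat3 itself was not called at -0.14 ± 0.11, although both of its other probes were lower and called. Cish, a further STAT target, rose by 1.44 ± 0.06.

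Nodal and activin pathway genes gave 6 higher and 3 lower of 12 tested, against 32.4% and 33.9% of all genes. Lefty1, a Nodal inhibitor, rose by 0.77 ± 0.08, while Lefty2 read 12.63 and 10.51 in EpiSCs, against 13.99 and 14.09 in 2i ESCs. The fall of Lefty2 (adjusted p = 0.0014) was lost with only the 4 arrays fitted (adjusted p = 0.0559). Tdgf1 (Cripto), the Nodal coreceptor, rose by 1.85 ± 0.25 on 1 probe and was not called on its other probe. Gdf3 read 8.72 and 7.87 in EpiSCs, against 13.19 and 13.20 in 2i ESCs, a fall of 4.90 ± 0.23. In the Wnt list 5 were higher and 5 lower of 13 tested; the feedback inhibitor Axin2 fell by 0.51 ± 0.10 and the secreted antagonist Sfrp1 fell by 2.56 ± 0.10, and the ligands Wnt3, Wnt7b and Wnt8a were higher, Wnt7b not on its other probe. In the BMP list 5 were higher and 1 lower of 10. The lower gene was Id4, and Id2 rose by 2.17 ± 0.24, though its other probe was not called.

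Of 6 DNA methylation genes tested of 11 listed, 2 were higher and 1 lower, against 32.4% and 33.9% of all genes. Dnmt3b, a de novo methyltransferase, read 15.32 and 15.23 in EpiSCs, against 13.72 and 13.76 in 2i ESCs (1.54 ± 0.06). Dnmt3l, a cofactor without enzyme activity, read 11.03 and 7.14 in EpiSCs, against 13.16 and 13.12 in 2i ESCs, and the call (adjusted p = 0.0027) was lost with only the 4 arrays fitted (adjusted p = 0.0719). Dnmt1, the maintenance methyltransferase, was not called at 0.03 ± 0.09 (-0.29 and called lower with median scaling), nor was Uhrf1 at -0.17 ± 0.09. Of 11 germ cell genes, 8 were lower and 1 higher. Rhox9 and Rhox6, X-linked homeobox genes, were undetected in EpiSCs and at least 26.9-fold and 7.93-fold lower. Tex19.1, a gene that restrains retrotransposons, read 9.83 and 6.08 in EpiSCs, against 11.28 and 11.30 in 2i ESCs, and its call (adjusted p = 0.0066) was lost with only the 4 arrays fitted (0.103).

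Of 14 imprinted genes tested, 9 were higher and 3 lower, against 32.4% and 33.9% of all genes, with a median of 1.66 (0.88 on array 1 and 1.60 on array 2). Mest read 11.03 and 11.58 in EpiSCs, against 4.89 and 5.38 in 2i ESCs, at least 43.7-fold higher, with 2 other probes called the same way. Snrpn read 15.25 and 15.41 in EpiSCs, against 13.61 and 13.53 in 2i ESCs. Cdkn1c, Grb10 and Phlda2 were lower, Phlda2 not with only the 4 arrays fitted (adjusted p = 0.128). Igf2, a fetal growth factor, was not called, and its EpiSC arrays lay far apart, at 9.62 and 13.60, against 9.78 and 9.63 in 2i ESCs.

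Antigen presentation genes of class I were higher in 5 of 7 tested and lower in 0, against 32.4% and 33.9% of all genes. B2m, the light chain of class I molecules, read 12.54 and 14.40 in EpiSCs, against 11.16 and 11.21 in 2i ESCs. Tap2, a peptide transporter, rose by 3.20 ± 0.17. The class II gene H2-Ab1, among the 20 largest rises, read 10.71 and 10.83 in EpiSCs, against 5.46 and 5.40 in 2i ESCs, at least 30.1-fold higher, and the costimulatory receptor Cd40 at least 35.3-fold higher. The interferon list gave 4 higher and 3 lower of 11, with Usp18 at least 12.2-fold higher while Ifitm1 fell by 4.06 ± 0.14. Gbp2b, a guanylate binding protein, was at least 33.2-fold higher.

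Metabolic lists were split, and their counts stand beside 32.4% of all genes called higher and 33.9% called lower. Of 15 glycolysis genes tested, 5 were higher and 7 lower; Pfkp read 9.75 and 9.08 in EpiSCs, against 12.85 and 12.82 in 2i ESCs, while Pfkm and Ldha rose by 1.26 ± 0.09 and 0.64 ± 0.09, Pfkm on 2 of its 3 probes. Of 20 respiratory chain genes 2 were higher and 8 lower, the lower share close to that of all genes, with a median of -0.18, and the largest falls were Cox7a1 and Cox4i1 at -0.67 ± 0.19 and -0.66 ± 0.08, of which Cox7a1 lost its call without 2i array 1 (adjusted p = 0.0583). Cholesterol synthesis genes gave 4 higher and 5 lower of 11. Cell cycle genes gave 3 higher and 4 lower of 15, of which Ccnd2 rose by 2.74 ± 0.31 and Cdkn1b fell by 1.42 ± 0.19. In the amino acid and ER stress list 3 were higher and 6 lower of 14, and Atf4, its master regulator, read 8.20 and 8.41 in EpiSCs, against 11.15 and 11.24 in 2i ESCs. Immediate early genes gave 6 higher and 2 lower of 12, of which Ier2 read 5.83 and 6.34 in EpiSCs, against 8.73 and 8.77 in 2i ESCs, and Fos rose by 1.02 ± 0.11. The trophoblast list gave 2 higher and 3 lower of 8, the neural list 2 and 1 of 6, the matrix list 4 and 3 of 13, and the single gene tested of the list of genes of the 2-cell stage, Zscan4c, was at least 2.59-fold higher.

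Y-linked genes were higher in EpiSCs. Eif2s3y read 11.69 and 12.03 in EpiSCs, against 5.25 and 5.27 in 2i ESCs, where it was undetected, at least 64.3-fold higher. Kdm5d was undetected in 2i ESCs and at least 2.36-fold higher, and Uty rose by 0.54 ± 0.10, a call lost with array weights per group (adjusted p = 0.0533). Xist was undetected on all 4 arrays. Eif2s3y had a mean of 4.78 in epiblast-like cells (EpiLCs), which carry the same reporters as the 2i ESCs, and of 12.14 in MEFs. In ESCs grown in serum with LIF it was detected on both arrays of each group. Its means there were 6.26 in GFP+RFP+ cells and 6.33 in GFP+RFP- cells, which also carry these reporters, and 7.46 in O4-DE-GFP ESCs.

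**Figure D4:**
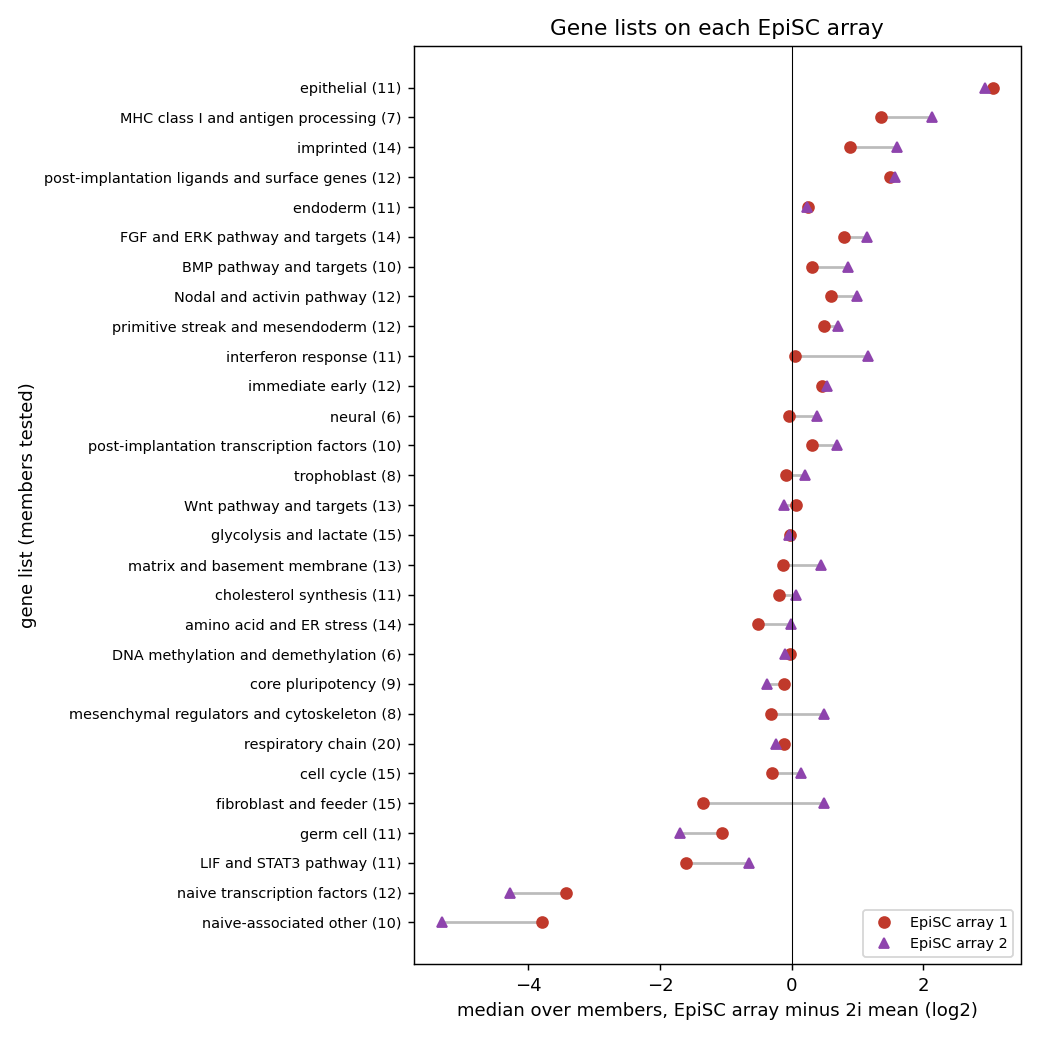
Median log2 difference from the 2i mean over the tested members of each gene list, for EpiSC array 1 (circle) and EpiSC array 2 (triangle); the number of members tested stands in brackets. Naive lists lie at the negative end and the epithelial list at the positive end on both arrays, and the fibroblast list lies at -1.35 on array 1 and 0.49 on array 2.

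The difference between the EpiSC arrays ran in a pattern of genes. The 402 genes over 2-fold higher on array 2 held 358 (89.1%) that were higher in MEFs than in 2i ESCs, against 47% of all genes tested, and the 188 higher on array 1 held 34 (18.1%). Across genes, EpiSC arrays 1 and 2 correlated with the MEF mean at r = 0.764 and 0.822, and with the 2i mean at 0.897 and 0.881. These values describe 2 arrays and carry no test.
Acta1, skeletal muscle actin, read 8.68 and 13.86 in EpiSCs, against 6.26 and 5.55 in 2i ESCs, with a MEF mean of 13.07; it was called higher (adjusted p = 0.00302), though not with only the 4 arrays fitted (0.0744). Acta2, smooth muscle actin, read 10.19 and 15.13 in EpiSCs, against 10.05 and 9.95 in 2i ESCs, so that array 1 matched 2i and array 2 lay near the MEF mean of 16.04. Cryab, a small heat shock protein, read 6.01 on EpiSC array 1 and lay 4.99 higher on EpiSC array 2, against 6.17 and 6.28 in 2i ESCs. Acta2 and Cryab were not called.
Of the 20 largest gaps, 17 were higher on array 2, among them Bgn, Tnc, Igfbp7, Timp2 and Mmp3, genes of the extracellular matrix or its remodelling. The other 3 were Dppa4, Dppa5a and Ooep, pluripotency genes with low signals in MEFs. Of the 17, Myl4 had a mean of 9.22 in MEFs, below its mean of 9.40 in 2i ESCs. For other genes of the 17, MEFs were not the only group above 2i. In GFP+RFP+ ESCs grown in serum with LIF, Mmp3, Tnc and Igfbp7 had means of 10.44, 11.72 and 12.11. Their means were 5.25, 8.97 and 10.13 in 2i ESCs, and 8.72, 15.43 and 15.88 in MEFs. Myl4 and Cdkn2a were lower in these serum ESCs than in 2i ESCs. Bgn read 8.54 and 13.37 in EpiSCs, against 11.69 and 11.56 in 2i ESCs, on opposite sides of 2i. For 164 of the 402 genes and 57 of the 188, the EpiSC arrays lay on opposite sides of the 2i mean. Over all 10481 genes tested this held for 1534. Of all genes, 3.84% were over 2-fold higher on array 2 and 1.79% on array 1. Of the fibroblast list 9 of 15 were over 2-fold higher on array 2 and 0 on array 1, and Col1a1 read 6.04 and 9.57 in EpiSCs, against 10.60 and 10.57 in 2i ESCs, a call (adjusted p = 0.013) lost with only the 4 arrays fitted (adjusted p = 0.135) and without 2i array 1 (0.0513). Fewer cells of a type and less RNA per cell cannot be told apart in such bulk samples.

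**Figure D5:**
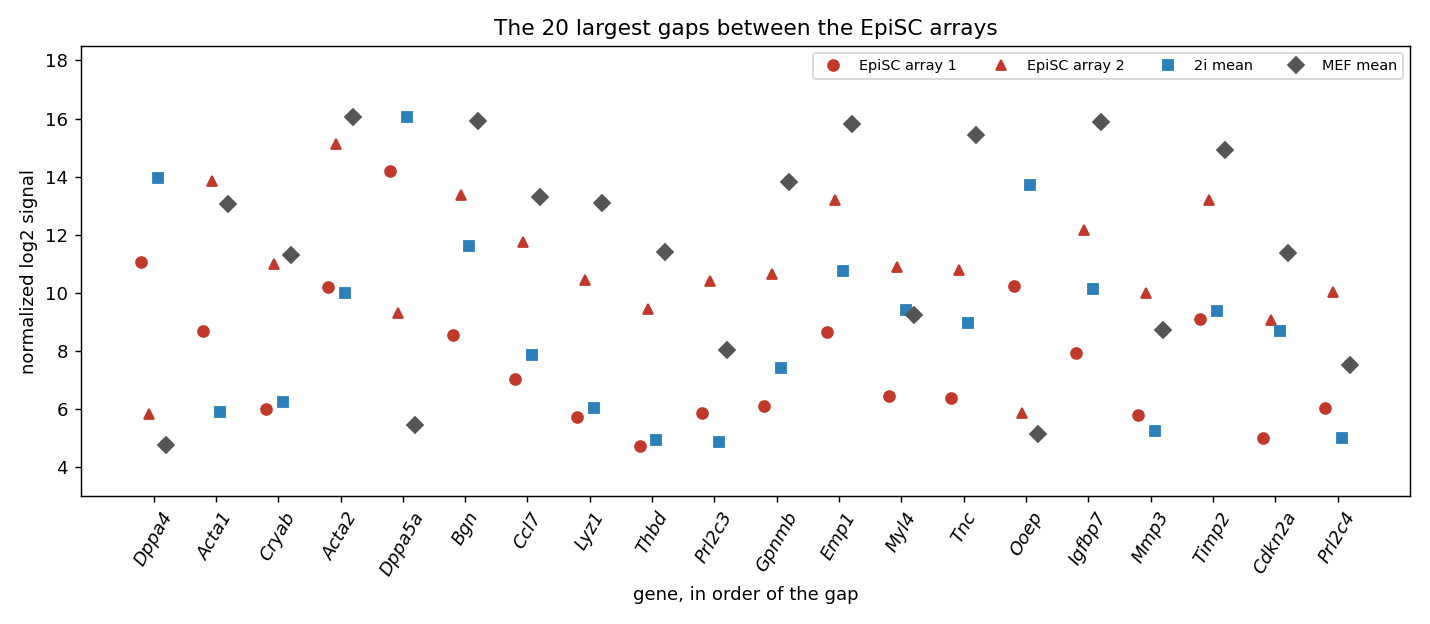
Normalized log2 signal of the 20 genes with the largest gap between EpiSC array 1 (red circle) and EpiSC array 2 (red triangle), with the means of 2i ESCs (blue square) and MEFs (grey diamond). In 17 of the 20 genes array 2 is higher; in Dppa4, Dppa5a and Ooep array 1 is higher and MEFs are near background.

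EpiSCs were set against EpiLCs to show where they part from another primed population. EpiLCs carry the same pair of reporters as the 2i ESCs and were sorted as GFP-RFP+ cells; the labels do not say whether the line is the same. This comparison shares the EpiSC arrays with the one above. Of the 10481 genes 5909 differed (56.4%), 2920 higher (27.9%) and 2989 lower (28.5%). Of the naive transcription factors 1 was higher and 2 lower, with a median of 0.11; Fgf5 was not called at -0.02, and Otx2, Fgf8 and Car4 were higher in EpiSCs by 2.61, 2.30 and 0.97. Krt18 was higher in EpiSCs by 1.76. Mest had a mean of 11.30 in EpiSCs and 4.98 in EpiLCs, where it was undetected, and was at least 45.7-fold higher. Amino acid and ER stress genes were lower in 12 of 14 tested and higher in 0. Streak and endoderm genes were each higher in 8, of 12 and of 11 tested. Olig1, a neural factor, had a mean of 6.03 in EpiSCs and 12.09 in EpiLCs, and Atf4 was lower by 3.23.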

How the data were processed

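Beadchip signals of 14 arrays in 7 groups of 2 were used. The deposited scanner table gives each probe an intensity and a detection p-value on every array, per the file headers; GenomeStudio 2011.1 is named in the submitters' processing notes. The authors' log2 values equal the quantile-normalized log2 of that intensity (100% within 0.01). Here normexp background correction and quantile normalization were applied (neqc of limma 3.58.1, offset 16, R 4.3.3). Probes detected at p under 0.05 by the full pair of arrays in 1 or more groups were kept. Of 25697 probes, 23978 had 1 gene symbol, 1719 had none, and 23962 were matched to current RefSeq gene records. The kept probe with the highest mean stood for its gene, which left 10481 genes. limma fitted group means (7 residual degrees of freedom); a call is a Benjamini-Hochberg adjusted p under 0.05. "At least N-fold" applies where neither array of a group detected the gene: the detected group's mean is set against the dim group's mean of, per array, the higher of its lowest detected signal and the probe's own. Depth is unknown for arrays, and their number limits the precision.

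Named were list members, the 20 largest rises and falls among called genes with both EpiSC arrays beyond both 2i arrays, and the 20 largest gaps between EpiSC arrays. The members and gene lists were chosen with earlier results of these data known. Of 406 listed genes 317 were tested, 46 were not detected and 43 had no probe named. A trial of the fit on simulated data gave every array the same spread for a gene. It therefore cannot show how the fit handles the wider spread of the EpiSC pair. Motifs were counted with Python 3.11.15. Alternatives changed the normalization, background correction, detection filter, probe rule, arrays fitted, model of spread and replicate block, or left out 1 array.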

Additional observations from a re-analysis of the deposited data

How the results depend on the processing

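Of 243 named genes called, 175 stayed called in the same direction under each of 17 alternatives and 68 lost the call under at least 1: 56 with only the 4 arrays compared and 32 with array weights per group (weight 0.172 for EpiSC), among others. Against 2i, 6946 genes were called, 5025 with only the 4 arrays, 5021 with array weights and 6072 to 7330 on leaving out 1 array. With all detected probes 5415 were lower, against 3549. Called at least 2-fold were 1677 with the authors' processed values and with no background correction, against 2898; in the comparison with EpiLCs these counts were 799 and 1722. Calls against EpiLCs were 3403 (1692 higher, 1711 lower) with only the 4 arrays and 3612 (1838 higher, 1774 lower) with array weights, against 5909, and 4498 probes were lower with all detected probes, against 2989. Leaving out 1 array gave 4805 to 6323 calls there. Genes over 2-fold apart between the EpiSC arrays were 232 with the authors' values and with no background correction, against 590. Median scaling moved the median of all genes to -0.17, and 39.7% of calls were higher, against 48.9%. The replicate block gave 6923 calls against 2i and 5857 against EpiLCs. Deviations of EpiSC and 2i replicate 1 correlated at -0.0048. The highest such value for any 2 groups was 0.087, for EpiLCs and the O4-DE-GFP ESCs grown in serum with LIF. The wide gap of the EpiSC pair could hide a small shared effect, so this value cannot settle whether replicate numbers pair the arrays.

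The sign turned for 32 named genes whose difference was called in the reported fit or under the alternative that turned it; of these Ndufa2 and Top2a were called in the reported fit. Genes called in neither, such as Cryab, Thbd and Cdkn2a, are not counted. Without EpiSC replicate 1 and without EpiSC replicate 2, in this order, the differences were Bgn 1.74 and -3.08, Ccl7 3.90 and -0.83, Cdkn2b 0.46 and -2.69, Chac1 0.92 and -0.95, Col5a1 0.64 and -1.37, Dcn 0.92 and -2.62, Egr2 -0.55 and 0.96, Emp1 2.43 and -2.10, Gpnmb 3.21 and -1.32, Ier3 0.82 and -0.67, Igfbp7 2.04 and -2.19, Inhbb 2.10 and -1.33, Lyz1 4.42 and -0.30, Meis1 0.85 and -0.93, Myl4 1.48 and -2.96, Nid1 0.45 and -1.998, Nodal -0.36 and 0.75, Psmb8 -0.36 and 0.68, Rhox5 -1.08 and 1.71, Slc7a11 0.93 and -0.65, Timp2 3.83 and -0.27, Tnc 1.81 and -2.59, Utf1 -0.38 and 0.40. With median scaling they were Cdkn1a -0.25, Dnmt1 -0.29, Egr1 -0.25, Gapdh -0.44, Nanog -0.37, Ndufa2 -0.024, Slc2a3 -0.32, Top2a -0.038. With the probe set restricted to those detected in EpiSC or 2i, where another probe stood for the gene, Ncam1 gave -1.05. The cause was not tested for the other changes. Signal near background limits genes undetected in 1 group to a bound.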

Other observations

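EpiSCs held a small group of genes outside the range of every other group. A margin of 2 log2 units to each group mean was used, a limit chosen after the data were seen. Of the 10481 genes tested, both EpiSC arrays lay below all other groups for 9 and above them for 22. Among those above, Gm14685, Slc44a3, Tmprss2, Calcr, Enkur, C1ql2, Matn1, Klk1b22 and Lhx1 were detected on no array outside EpiSCs. These genes passed the detection filter only through EpiSCs, so the filter itself favoured their place above the other groups. Plk1, a mitotic kinase, read 7.95 and 7.90 in EpiSCs, against 13.28 and 13.25 in 2i ESCs. Its lowest mean in any other group was 10.63, in MEFs. Ctsc, a lysosomal protease, read 4.98 and 4.78 in EpiSCs, against 10.74 and 10.76 in 2i ESCs and 11.25 in MEFs, with 2 other probes called the same way. Cops8, Psmd8 and Cox15, subunits or assembly factors of complexes used by most cells, were also below all groups, with Cops8 at 6.24 and 7.35 in EpiSCs, against 12.0 and 11.94 in 2i ESCs. Plk1, Cops8, Psmd8 and Cox15 each had 1 detected probe.

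Above all groups were Xlr4a, an X-linked gene, at 13.80 and 13.05 in EpiSCs, against 6.29 and 6.46 in 2i ESCs, and Fmr1nb, also X-linked, at 10.83 and 10.35 in EpiSCs, against 6.13 and 6.19 in 2i ESCs. H2-Ab1 had a mean of 7.71 in EpiLCs and 5.43 in MEFs, both under its EpiSC values. Foxq1, a forkhead factor, read 9.75 and 9.34 in EpiSCs, against 5.08 and 4.97 in 2i ESCs. No test was made of these 31 genes as a group. The EpiSC arrays also had the highest scanner medians of the series, 313.5 and 316.8 intensity units, against at most 209.4 on any other array. Whether this bears on these genes was not tested.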
